A study of Mus musculus with 4 samples.

Results

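The genes described here are 7 known genes of the orexigenic neurons of the arcuate nucleus, the cells that make neuropeptide Y (NPY) and agouti-related peptide (AgRP): Npy, Acvr1c, Ghsr, Corin, Npy2r, Sphkap and Asb4. They were taken by gene symbol in the platform annotation, which gave 10 of the 25697 probes on the array: 3 for Ghsr, 2 for Asb4 and 1 for each other gene. Of these 10 probes, 9 were above background on enough arrays to be tested, among 12266 tested probes in all. No measured value entered the choice, although it was made with earlier results of these data known. No probe was annotated as Agrp, so the peptide gene that defines these neurons beside Npy was not analysed here.

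The study asked which hypothalamic neurons descend from precursors that expressed Pomc, the gene of the melanocortin precursor. All mice carried the Pomc-Cre transgene, which expresses Cre recombinase under control of Pomc sequences. For the lineage group (2 arrays), these mice were crossed to RiboTag mice, in which Cre permanently switches a ribosomal protein to a hemagglutinin-tagged form in a cell and all its descendants. For the virus-injected group (2 arrays), they received a Cre-dependent adeno-associated virus, AAV-DIO-RiboTag, that delivers the tag. Only cells with Cre at or after the injection can switch it on, and the labels call these adult POMC neurons. In both groups tagged ribosomes were precipitated from punches of the mediobasal hypothalamus and the RNA was amplified and read on Illumina MouseRef-8 v2 beadchips, without arrays of the input tissue among those analysed. Age, sex and strain are not given in the labels used here, nor is the number of animals behind an array, so the spread behind the p-values may be that of technical repeats. The virus reaches the cells around its injection site, and its spread was not recorded in the labels.

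NPY/AgRP neurons and POMC neurons lie side by side in the arcuate nucleus and act in opposite directions on feeding. NPY and AgRP raise food intake, the first through its own G protein-coupled receptors and the second by blocking melanocortin receptors, whereas peptides cut from POMC lower it. NPY/AgRP neurons are driven by ghrelin, a stomach hormone that signals hunger, and restrained by leptin and insulin.

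The stretch of mouse genome just before the annotated start is shown for Npy, Ghsr, Corin and Asb4. They were not chosen by the size of their difference between the groups, and Acvr1c, with the next largest after Npy, is not among them. RefSeq promoter sequences (build GRCm38.p6) matched all 7 genes, and the 4 shown are those whose listed start is the outermost start of the gene. Each is the 120 bases before the start, 5′ to 3′ on the gene's strand, and capitals mark the motifs found.
Npy, chr6:49822590-49822709, plus strand: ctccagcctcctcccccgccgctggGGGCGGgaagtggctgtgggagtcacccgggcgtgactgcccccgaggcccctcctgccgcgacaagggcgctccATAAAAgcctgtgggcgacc
Ghsr, chr3:27371231-27371350, plus strand: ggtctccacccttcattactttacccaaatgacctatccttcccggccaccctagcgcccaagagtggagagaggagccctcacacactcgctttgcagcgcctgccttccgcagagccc
Corin, chr5:72504541-72504660, minus strand: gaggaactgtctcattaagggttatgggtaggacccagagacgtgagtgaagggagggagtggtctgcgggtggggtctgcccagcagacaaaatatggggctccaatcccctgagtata
Asb4, chr6:5383266-5383385, plus strand: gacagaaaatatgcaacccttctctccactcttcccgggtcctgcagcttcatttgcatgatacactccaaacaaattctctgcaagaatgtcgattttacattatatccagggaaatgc

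Both strands were searched for promoter elements bound by the general transcription machinery, namely TATAAA and the related ATAAAA, which can overlap each other, and for GGGCGG, the GC box. They were also searched for TTCNNNGAA, the site of STAT factors, for GTAAACA, a site of forkhead factors, for TGACG, which is part of the cAMP response element, and for TAATTA, a site of homeodomain factors. The Npy stretch held GGGCGG, starting 95 bases before the start, and ATAAAA, starting 20 bases before it. These 2 motifs occur in 26.5% and 8.30% of all 32851 promoter stretches of the same length. Neither these nor the other motifs searched matched in the Ghsr, Corin and Asb4 stretches, which says only that these letters are not in these windows. The stretches also differed in composition, with G or C at 73.3% of bases for Npy, 60% for Ghsr, 55% for Corin and 42.5% for Asb4.

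Npy, the gene of the orexigenic peptide itself, had an intensity of 1175 ± 37.5 (SE over beads) and 1106 ± 47.3 on the 2 virus-injected arrays and of 4783 ± 137 and 4451 ± 147 on the 2 lineage arrays. Both lineage arrays lay far above both virus-injected arrays, and within each group the arrays differed by less than 2 combined bead errors (1.65 and 1.13). After background correction and normalization, its log2 level was 12.07 ± 0.10 (SD, n = 2) for the lineage arrays against 9.47 ± 0.01 for the virus-injected ones, a 6.06-fold higher mean. The log2 difference was 2.60 (SE 0.15, 95% interval 2.20 to 2.995), the 2nd highest of all 12266 tested probes. It did not pass the adjusted threshold of 0.05 (limma adjusted p = 0.134). Npy was nonetheless detected on both virus-injected arrays, brighter than every negative control probe (detection p of 0). In RNA pooled over cells, fewer NPY cells and less Npy RNA per cell cannot be told apart.

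**Figure D1:**
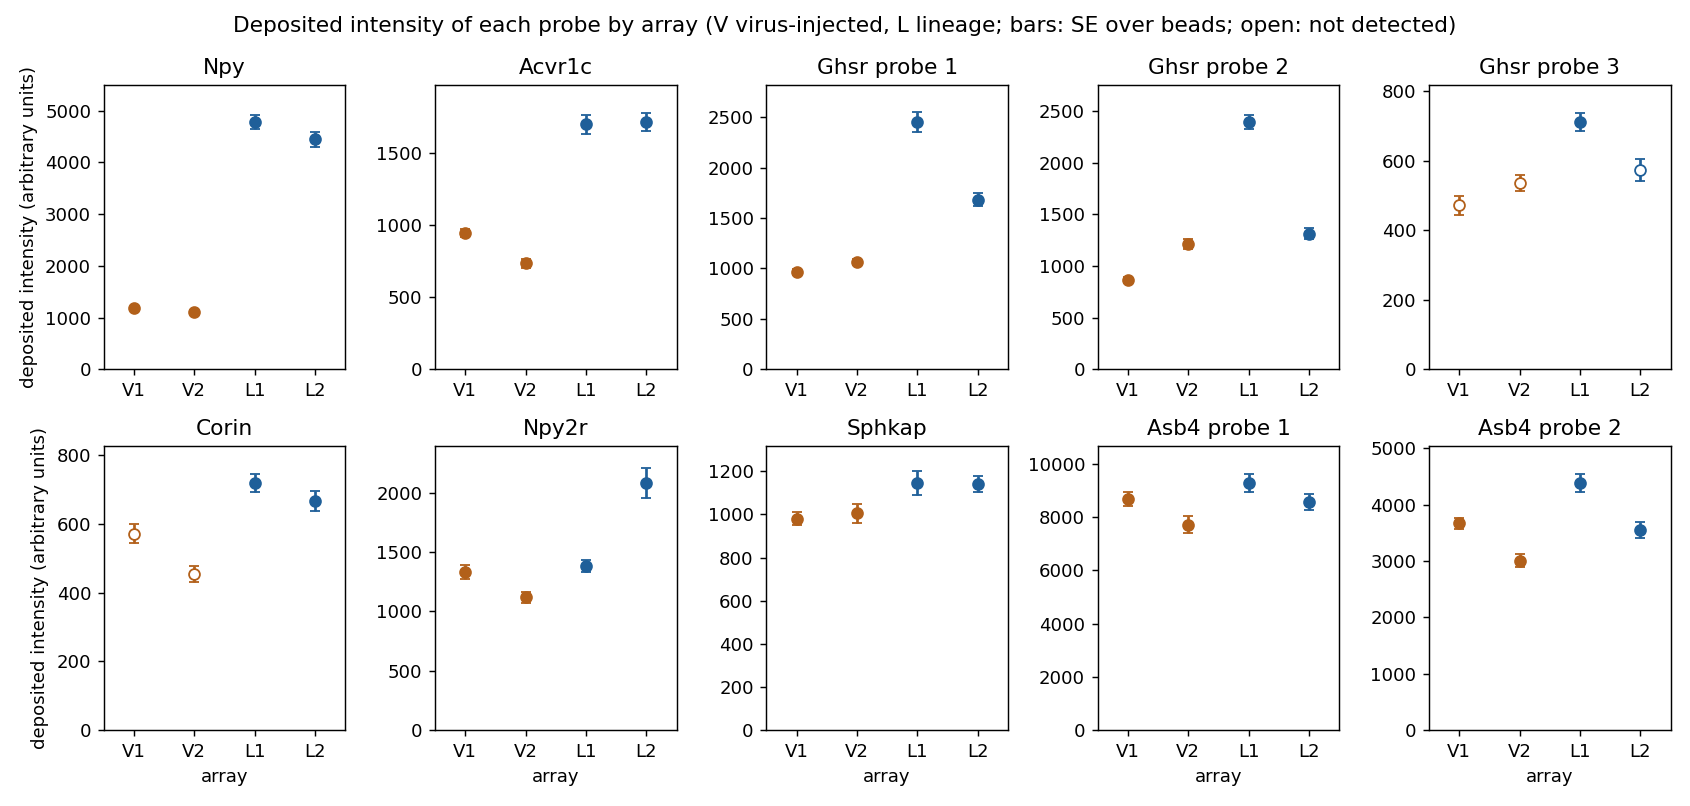
Deposited intensity (arbitrary units, linear axes from 0) of the 10 probes on each array, with V1 and V2 the virus-injected arrays and L1 and L2 the lineage arrays; bars are the SE over beads, and open circles mark a detection p of 0.05 or more. Npy and Acvr1c separated the groups by many bead errors, Ghsr lay higher on lineage array 1 than on lineage array 2 in all 3 probes, and the Asb4 values overlapped on this unscaled axis.

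Over all 12266 tested probes none passed the adjusted threshold (0% called; lowest limma adjusted p = 0.134), and 1275 had an unadjusted p under 0.05, of which 594, or 4.84% of the tested probes, were higher in the lineage group. Of the 9 tested probes of the 7 genes, none passed after adjustment and 4 had an unadjusted p under 0.05, all higher in the lineage group: Npy, Acvr1c, Corin and the brightest Ghsr probe. An eBayes fit in which the spread may follow brightness called 3 of the 9, namely Npy, Acvr1c and the brightest Ghsr probe (limma adjusted p = 2.88e-08, 0.00112 and 0.00360), against 0.815% of tested probes called higher in that fit. Without background correction Npy and Acvr1c were called, against 0.163% of tested probes called higher. All 10 probes, including the untested one, had both lineage values above both virus-injected values after normalization, which held for 19.8% of all 25697 probes. On the deposited intensities, before any scaling between arrays, 8 of the 10 did, against 13.8% of all probes. Their median log2 difference was 1.09, against 0.0040 over all probes, and 5 of the 10 were higher in the lineage group by at least 1, against 0.483% of all probes higher by as much. These shares over all 25697 probes include those that were not tested. For a second count, Corin, detected on the lineage arrays alone, was put at its bound of 1.60-fold and the untested probe left out. The median was then 0.71 and 4 of 9 reached 1, among them both tested Ghsr probes. The lowest of these 4 differences, 1.20, was reached by 0.473% of all tested probes. With 2 arrays a group, the smallest two-sided p of an exact permutation test is 0.333, so no single probe could be judged that way.

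**Figure D2:**
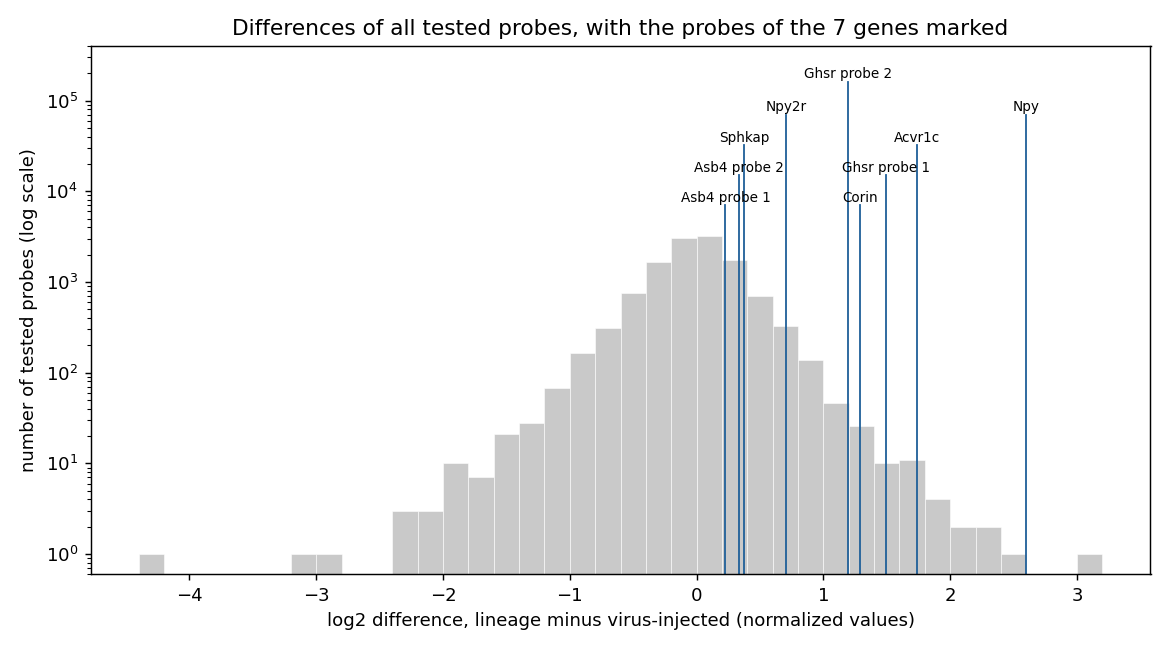
Number of tested probes (log axis) by log2 difference between the lineage and virus-injected groups, in bins of 0.2, with blue lines at the 9 tested probes of the 7 genes. Npy at 2.60 stands in the far right tail, the Acvr1c, Ghsr and Corin probes lie between 1.20 and 1.74, and Sphkap and both Asb4 probes lie between 0.23 and 0.38, inside the bulk of all probes.

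Among the receptors, Acvr1c, which encodes ALK7, a type I receptor for activin B, nodal and related factors, had the highest fitted difference. Its intensity was 944 ± 30.0 and 732 ± 30.0 on the virus-injected arrays and 1695 ± 66.0 and 1712 ± 59.2 on the lineage arrays. The lineage arrays were alike and both higher, while the virus-injected arrays differed by 4.98 combined bead errors. The log2 level was 10.35 ± 0.05 (SD, n = 2) against 8.62 ± 0.45, and the mean 3.33-fold higher in the lineage group (log2 difference 1.74, SE 0.26, 95% interval 1.06 to 2.41; limma adjusted p = 0.295). Only 14 of the 12266 tested probes, itself included, had as high a difference.

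Ghsr encodes the ghrelin receptor, which on NPY/AgRP neurons conveys the hunger signal of the stomach. Its brightest probe read 962 ± 29.3 and 1062 ± 31.4 on the virus-injected arrays and 2454 ± 102 and 1682 ± 65.2 on the lineage arrays. The groups did not overlap, but lineage array 1 exceeded lineage array 2 by 6.40 combined bead errors. The log2 level was 10.67 ± 0.54 (SD, n = 2) against 9.18 ± 0.27, a log2 difference of 1.49 (SE 0.31, 95% interval 0.66 to 2.32; limma adjusted p = 0.322), or 2.81-fold.

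A second Ghsr probe read 866 ± 30.7 and 1212 ± 46.7 on the virus-injected arrays and 2393 ± 64.5 and 1313 ± 52.3 on the lineage arrays. Here the lower lineage array lay just above the higher virus-injected array, and the log2 difference of 1.20 had an interval that included 0 (-0.21 to 2.61; limma adjusted p = 0.522). Leaving out 1 array moved it between 0.58, without lineage array 1, and 1.82, without lineage array 2. The third Ghsr probe was dim, with 471, 536, 711 and 574 on virus-injected arrays 1 and 2 and lineage arrays 1 and 2. It was detected on lineage array 1 alone and was not tested, so no fold is given for it. The 2 tested Ghsr probes differed from each other by less than the interval of either, and all 3 probes were higher on lineage array 1 than on lineage array 2. Across the 1489 genes with 2 tested probes, the log2 differences of the probes lay a median of 0.196 apart.

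Npy2r encodes the Y2 receptor, through which NPY neurons sense their own peptide and curb its release. Its intensity was 1332 ± 58.9 and 1119 ± 45.9 on the virus-injected arrays and 1382 ± 47.2 and 2081 ± 125 on the lineage arrays. Lineage array 2 was high, 5.22 combined bead errors above lineage array 1, which lay close to virus-injected array 1. The log2 level was 10.32 ± 0.50 (SD, n = 2) against 9.62 ± 0.18, and the difference of 0.71 (SE 0.29, 95% interval -0.04 to 1.46; limma adjusted p = 0.497) ranged from 0.36 without lineage array 2 to 1.06 without lineage array 1. Ghsr and Npy2r were thus each highest on a different lineage array.

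Corin encodes a transmembrane serine protease that activates the precursor of atrial natriuretic peptide and, in mouse skin, limits agouti-driven coat pigmentation. Its probe read 572 ± 26.3 and 455 ± 23.1 on the virus-injected arrays, where it was not above background (detection p of 0.0714 and 0.331), and 718 ± 25.8 and 666 ± 28.5 on the lineage arrays, where it was (0.00251 and 0.0388). The lineage arrays were both higher, but all 4 values lay close to the background of the arrays, for which 416 to 440 had been subtracted in the authors' processed values. With the virus-injected values set to the lowest detected signal, the lineage mean was 1.60-fold higher, a bound that carries no sampling error. The log2 level before that was 8.10 ± 0.35 against 6.82 ± 0.66 (SD, n = 2, limma adjusted p = 0.415). Corin passed the detection filter through the lineage arrays alone, so its presence among the tested probes already favoured a higher lineage value. Its fitted log2 difference was 1.29, but 0.49 when the background correction was left out and 2.48 on the authors' processed values.

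The last 2 genes act inside the cell. Sphkap encodes an anchoring protein that binds type I protein kinase A and sphingosine kinase. It read 981 ± 30.5 and 1006 ± 43.0 on the virus-injected arrays and 1146 ± 54.0 and 1141 ± 37.5 on the lineage arrays. The arrays of each group agreed within 1 combined bead error and the lineage arrays were slightly higher. The log2 difference was 0.38 (SE 0.16, 95% interval -0.05 to 0.80; limma adjusted p = 0.511), a value that 1435 tested probes, or 11.7%, reached.

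Asb4 encodes a substrate receptor of a cullin ubiquitin ligase that is abundant in the arcuate nucleus and in the rat is known from both NPY and POMC neurons. Its brighter probe read 8683 ± 268 and 7716 ± 323 on the virus-injected arrays and 9277 ± 340 and 8576 ± 294 on the lineage arrays. On this scale the groups overlapped, since virus-injected array 1 exceeded lineage array 2, and they separated only after scaling between arrays. The log2 level was 13.11 ± 0.07 (SD, n = 2) against 12.88 ± 0.05, a difference of 0.23 (SE 0.15, 95% interval -0.16 to 0.62; limma adjusted p = 0.637). The second Asb4 probe read 3666, 3007, 4381 and 3556 on virus-injected arrays 1 and 2 and lineage arrays 1 and 2, overlapped in the same way and gave 0.33 (-0.18 to 0.85; limma adjusted p = 0.609). The upper ends of these intervals are 1.54-fold and 1.81-fold, so a larger lineage excess of Asb4 lies outside them.

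**Figure D3:**
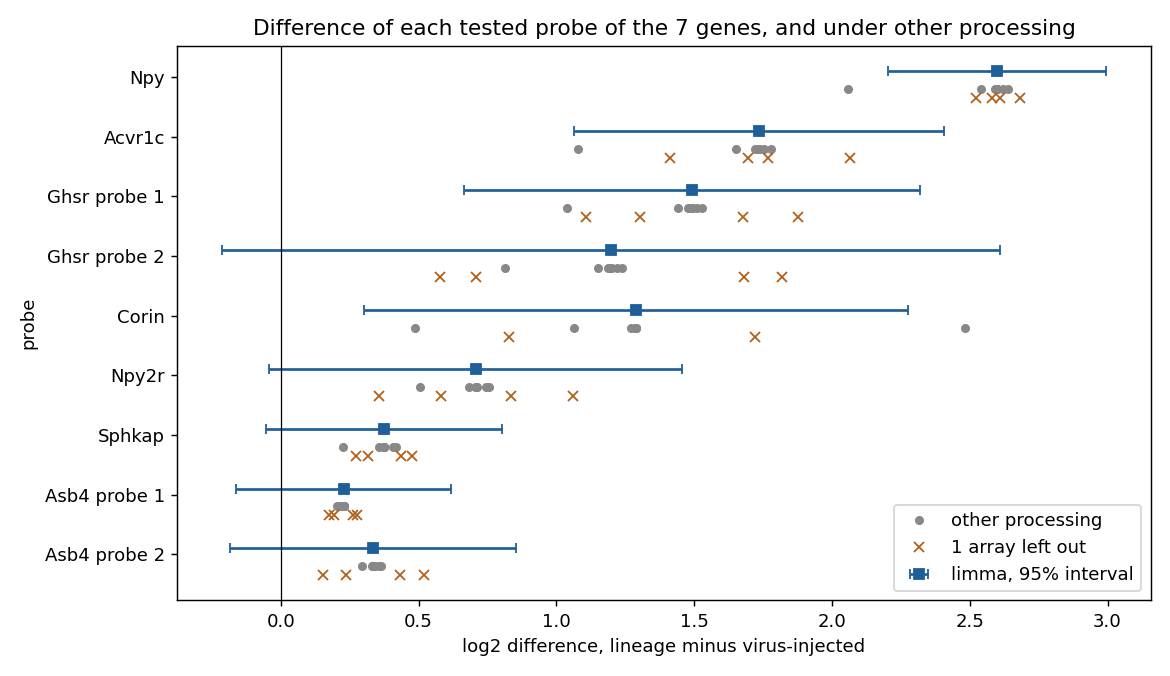
Log2 difference between the lineage and virus-injected groups for the 9 tested probes: blue squares with bars are the limma estimate and its 95% interval, grey dots other processing, and orange crosses fits with 1 array left out. Every symbol lies above 0, Npy stays between 2.06 and 2.68, and Corin spreads most, from 0.49 to 2.48.

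The fitted differences therefore varied in size among the members, though no contrast between probes was tested. The intervals of Npy (2.20 to 2.995) and of either Asb4 probe (up to 0.62 and 0.85) did not overlap. Within each array, the Npy log2 signal minus that of the brighter Asb4 probe was -3.44 and -3.39 on the virus-injected arrays and -1.03 and -1.07 on the lineage arrays, an excess of 2.37 that does not depend on scaling by a common factor. Pomc, whose promoter drives Cre in both groups, read 5079 ± 210 and 5219 ± 215 on the virus-injected arrays and 7108 ± 317 and 7874 ± 336 on the lineage arrays. Relative to Pomc on the same array, the lineage excess on the log2 scale was 1.94 for Npy, 1.08 for Acvr1c and 0.84 for the brightest Ghsr probe. It was 0.54 for the second Ghsr probe and 0.05 for Npy2r, and in both the groups overlapped. For Sphkap (-0.28) and the brighter Asb4 probe (-0.43) the excess was negative. Corin and the dim Ghsr probe are left out because they were not above background on the virus-injected arrays. These within-array ratios carry no test.

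By the closeness of values over the 4 arrays, each gene being centred on its own mean, the genes most like Npy were Tac2, Tacr3, Kiss1, Elmo1 and Lama1. Tac2 encodes neurokinin B and Tacr3 its receptor, and with Kiss1 they mark kisspeptin neurons of the arcuate nucleus. Elmo1 encodes an adaptor for Rac activation and Lama1 a laminin chain. Their sums of squared differences from Npy were 0.181, 0.283, 0.451, 0.638 and 0.733. On the virus-injected arrays Tac2, Tacr3 and Lama1 were not above background and Kiss1 and Elmo1 were on 1 of the 2, so these sums and their order rest in part on values at background. Tac2 was at 8.88 and 9.12 (log2) on the lineage arrays and at 6.58 and 6.79 on the virus-injected arrays, and Elmo1 was at 9.54 and 9.09 against 7.65 and 7.18. Acvr1c ranked 11th by the same measure and the brightest Ghsr probe 23rd, whereas Npy2r, Sphkap and the brighter Asb4 probe ranked 389, 1138 and 2224. With 4 arrays in 2 groups, this likeness mainly reflects the size of the group difference.

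**Figure D4:**
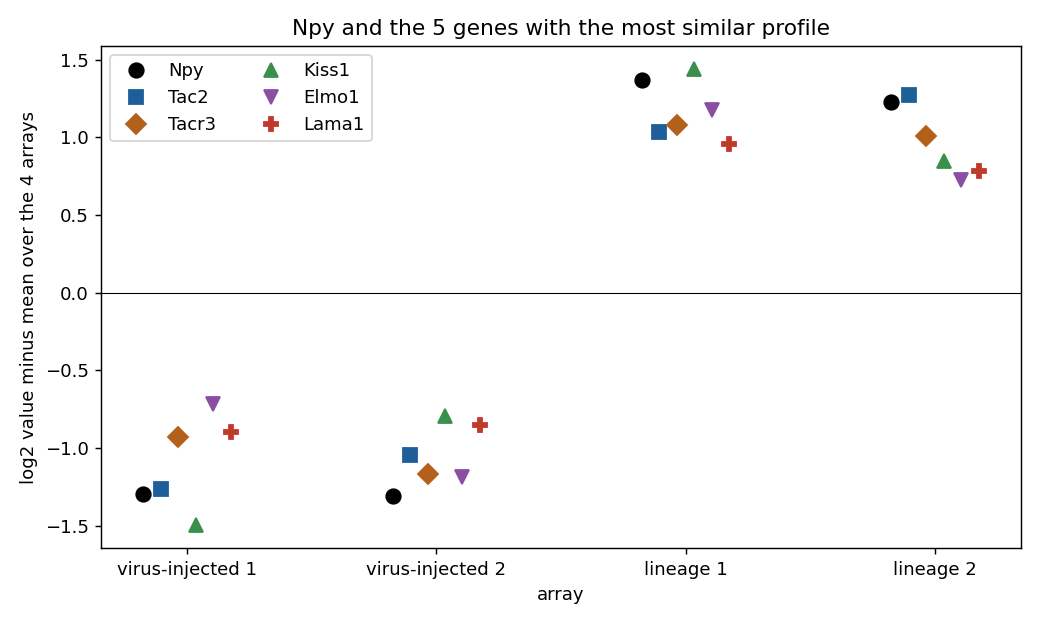
Normalized log2 value of Npy and of the 5 genes most like it, each minus its own mean over the 4 arrays; each symbol is 1 gene on 1 array. All 6 genes lie below 0 on both virus-injected arrays and above 0 on both lineage arrays, with Npy and Tac2 almost coinciding on virus-injected array 1 and lineage array 2.

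The pathways of the 7 genes showed no probe past the adjusted threshold in any list. Beside Npy2r, the NPY receptor list held Npy1r, the Y1 receptor through which NPY raises feeding, Npy4r and Npy5r. Npy1r had a log2 difference of 0.46 (SE 0.16; limma adjusted p = 0.442), Npy4r of 0.10 and Npy5r of -0.06 (SE 0.38). Of the 9 tested probes for proteins that process or store neuropeptides, 8 had the higher mean on the lineage arrays, against 50.6% of all tested probes, with a median of 0.29. Pcsk1, the prohormone convertase that cleaves the precursors of both NPY and POMC, lay at 0.98 (SE 0.19; limma adjusted p = 0.303). Pam, the enzyme that amidates NPY, lay at -0.23 and the 3 probes of the granule protein gene Chga at 0.38, 0.48 and 0.50.

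Partners of the receptors showed small differences. In the ghrelin list, 11 tested probes had a median of 0.09, Ghsr probes included. Ghrl, the ghrelin gene, was detected on 1 array of each group, and Gnaq and Gna11, the G proteins that couple the receptor, lay between -0.14 and 0.23. In the activin and nodal list, 12 tested probes had a median of 0.01. Acvr1c was the only one with an unadjusted p under 0.05, and the type II receptors Acvr2a and Acvr2b, with which ALK7 pairs, lay at 0.41 and -0.22. The other type I receptor for activin, Acvr1b, lay at -0.09 (SE 0.19), and the activin subunit gene Inhbb at -0.26 with detection on 1 array of each group.

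In the natriuretic peptide list, Nppa, the substrate of corin in the heart, was not above background on any array. Nppc lay at 0.29 with detection on 1 array of each group, and the receptor genes Npr2 and Npr3 at -0.25 and 0.77 (SE 0.15 and 0.48). The protein kinase A subunits Prkar1a and Prkar1b, which SPHKAP binds, both lay at 0.02 and Prkaca at 0.15 and 0.00 on its 2 probes. Prkar2b lay at 0.38, Vapb at 0.58 and 0.28, Vapa at -0.14 and Sphk2 at -0.11 and 0.15. Of the 14 tested probes of this list, Sphkap included, 10 were higher in mean on the lineage arrays and 4 lower, with a median of 0.09. Cul5, the cullin that assembles with ASB4, lay at 0.71 (SE 0.24; limma adjusted p = 0.446), Eloc at -0.28 and the 3 Elob probes between 0.11 and 0.21.

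Of the 14 tested probes for other genes of orexigenic arcuate neurons, 4 had an unadjusted p under 0.05, all higher in the lineage group, against 4.84% of tested probes, and none passed after adjustment. They were both probes of Ghr, the growth hormone receptor (0.78 and 0.63), Htr1b, a serotonin receptor (0.87, SE 0.21; limma adjusted p = 0.357), and 1 of 3 Stat3 probes (0.80, with 0.24 and 0.28 on the others). Lepr, the leptin receptor, lay at 0.71 and Mc3r, a melanocortin receptor, at 0.60. Insr, the insulin receptor, lay at -0.06 and Foxo1, detected on 1 array of each group, at 0.16. Over all 14 probes, 10 had the higher mean on the lineage arrays and 4 the lower, with a median of 0.26. The GABA markers Gad1, Gad2 and Slc32a1, present in NPY/AgRP neurons and in many of their neighbours, lay at 0.00, 0.19 and -0.46, with -0.06 on a further Gad1 probe. Bsx and Otp, transcription factors of NPY/AgRP neurons, were not above background on any array.

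Markers of other cells also differed in mean between the groups. For neurons of neighbouring nuclei, 5 of 7 tested probes had an unadjusted p under 0.05, all lower in the lineage group, against 5.55% of all tested probes. Of these 5, 1 (Pmch) was detected on the virus-injected arrays alone and so passed the filter through the group where it was high. In the authors' processed values, all 7 tested probes summed to 12014 to 14593 on the virus-injected arrays and 2465 to 2824 on the lineage arrays. Avp, the vasopressin gene, and Hdc were the brightest on the virus-injected arrays and lay at -4.23 and -1.92 (log2). Trh lay at -1.53 and Oxt at -1.33. Both Nr5a1 probes went the other way (0.07 and 0.22), and Hcrt was below the filter. For kisspeptin neurons, 5 of 8 were higher at that threshold, against 4.84% of all tested probes. Sums over all 8 were 13908 to 15036 on the virus-injected arrays and 17718 to 19430 on the lineage arrays. A Pdyn probe outside the 5 was by far the brightest (log2 13.7 on the lineage arrays against 13.5), so the sums mostly follow it. Of these 5, 3 (Tac2 and both Tacr3 probes) were detected on the lineage arrays alone, so the filter favoured them, and 2 (Kiss1 and Esr1) in both groups. The tested probes outside the 5 were both Pdyn probes (0.27 and 0.22) and a second Esr1 probe (0.03). For astrocytes, all 4 tested probes had the lower mean on the lineage arrays. Of these 4, 2 had an unadjusted p under 0.05, against 5.55% of all tested probes lower. Their sums were 5814 to 6399 on the virus-injected arrays and 4420 to 4514 on the lineage arrays, with Gfap and Aqp4 below the filter. For oligodendrocytes, all 5 tested probes had the lower mean, 2 of them at that threshold (sums of 4794 to 5133 against 3276 to 3520). The 1 tested vascular probe was lower at that threshold too, while none of the 2 microglial and 4 tanycyte probes passed it. Of the 9 tested probes of the POMC list, 7 had the higher mean on the lineage arrays and 2 the lower. At an unadjusted p under 0.05, 3 were higher, again against 4.84%. They were Pcsk1 (0.98), Pomc (0.65) and the dimmest Tbx3 probe, the last detected on the lineage arrays alone. The brighter Tbx3 probes, detected on every array, lay at 0.28 and 0.61, Isl1 at 0.11 and Lepr at 0.71. Sums over all 9 were 41653 to 45377 on the virus-injected arrays and 46350 to 46441 on the lineage arrays. Both Cartpt probes, the brightest of this list, lay at -0.06 and -0.01. The part of these cells in the differences of Npy and the other 6 genes was not tested. All 4 arrays shared 1 beadchip, where the groups held different positions (B and D for the virus, F and H for the lineage), so position and group cannot be told apart. Arrays had 10982 to 12306 detected probes and correlated at r = 0.964 to 0.968 within groups and 0.949 to 0.960 between them, across probes, which are not independent replicates.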

How the data were processed

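Ribosome-bound RNA was profiled on 4 arrays, grouped by the labels' titles. Per the file headers, the deposited table holds the mean intensity of each probe, a count of its beads, the SE over beads (also an intensity) and a detection p-value. GenomeStudio was used, per the submitters' processing notes, with no version given in the sources used here. A further table of processed intensity values from the authors served as an alternative: each column was a straight line of the deposited intensity (largest residual 0.0101) after subtraction of 416 to 440, with medians of 122 to 134 and a common mean of 718, so its scale and direction are settled.

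Intensities were corrected with normexp from the detection p-values (offset 16), quantile normalized and set to log2 (limma 3.58.1, R 4.3.3). Probes with a detection p under 0.05 on at least 2 arrays were tested with lmFit and eBayes in 1 fit of all arrays, without covariates, tested on simulated data beforehand. P-values are two-sided, Benjamini-Hochberg adjusted over all tested probes. The annotation named 1 gene for 23978 probes and none for 1719. Every probe is kept separate. For a probe at background, the fold is a bound against the lowest signal detected on each array. The number of arrays limits the precision.

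The 7 genes, the pathway and marker lists and the tests were chosen with earlier results of these data known. The rule for named genes took all probes of the 7 genes, direct partners detected on at least 2 arrays, and the 5 genes closest to Npy. Nppa, Bsx, Otp, Hcrt, Gfap, Aqp4, Pmch, Tbx3, Esr1, Pdyn, Hdc, Trh, Oxt, Nr5a1 and Cartpt were named after their values were seen. So were Insr, Foxo1, Isl1 and the markers outside these lists.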

Additional observations from a re-analysis of the deposited data

How the results depend on the processing

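The log2 differences of the 9 tested probes kept their direction in all 114 values from the 13 alternatives, in which Corin had no value with the stricter filter or without either lineage array. Changes of the filter, the eBayes trend and the replicate block cannot alter these differences, so their values repeat the main fit. Leaving out 1 array could hardly reverse them, since both normalized lineage values lay above both virus-injected values for every probe. The count is therefore no measure of robustness. The limma fit called 0 of 12266 probes and 0 of the 9. No background correction called 45 probes and 2 of the 9 (Npy at 2.06, limma adjusted p = 1.39e-04, and Acvr1c at 1.08), median scaling 5 and 1 (Npy at 2.62, limma adjusted p = 0.0427), an eBayes trend 232 and 3 (Npy at 2.60, limma adjusted p = 2.88e-08) and the authors' processed values 1 and 0; the cause was not tested. An offset of 50, cyclic loess, no filter, detection on all 4 arrays and leaving out each array called 0 probes, with Npy between 2.52 and 2.68 when an array was left out and its limma adjusted p up to 0.789. The numbers 1 and 2 are shared by the groups but nothing says that they pair arrays, and the deviations of same-numbered arrays correlated at -0.02 across probes; with the replicate block 0 probes were called and Npy stayed at 2.60 (limma adjusted p = 0.459). Signal over background limits Corin and the dim Ghsr probe most.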
